A study of Mus musculus with 2 samples.

Results

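The early growth response (EGR) zinc finger factors Egr1, Egr2 and Egr3, the NR4A orphan nuclear receptors Nr4a1, Nr4a2 and Nr4a3, and the EGR-binding corepressors Nab1 and Nab2 were compared between T cells stimulated in the presence of triptolide and T cells stimulated without it. Members were chosen by gene symbol. All 19 probe sets annotated to exactly 1 of these 8 symbols were taken, and the 8 genes stand among 18193 genes with a probe set named for 1 gene. The study hybridised total RNA of mouse primary T cells to Affymetrix arrays, 1 array for each of 2 conditions. In one condition purified T cells received antibodies against CD3 and CD28 together with triptolide at 50 ng/ml, and in the other they received the same antibodies without triptolide. The labels name no strain, age or number of animals. They give 18 h of culture, without saying how long the antibodies or triptolide were present. No unstimulated array was analysed here, so induction by the antibodies was not measured. With 1 array for each condition there was no replicate and no test between them, and every difference below describes these 2 arrays.

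Engagement of the T cell receptor switches on EGR and NR4A genes within minutes, without new protein synthesis. Egr1 transcription is driven largely by ERK kinase acting through serum response factor (SRF) and its ETS partners. NR4A transcription is driven largely by calcium signals acting through calcineurin, MEF2 and CREB family factors. EGR2 and EGR3 restrain T cell responses, NR4A receptors are linked to tolerance, regulatory T cells and exhaustion, and NAB proteins bind EGR1, EGR2 and EGR3 and repress their targets. Triptolide is a plant diterpenoid that binds the XPB subunit of the general transcription factor TFIIH and blocks the start of transcription by RNA polymerase II.

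The start-site regions of the members show which control elements each gene carries. RefSeq promoter windows on build GRCm38.p6 (250 bases before to 50 after a listed start) were taken for 6 of the 8 genes. Egr1 and Egr3 were not among them. Member windows were not taken from every chromosome, so a missing gene does not mean that it has no listed window. The windows below are those of the 2 members with the highest ratios, of the other NR4A genes and of Nab1, written 5′ to 3′ on the gene's strand. Capitals mark matches, on either strand, to the SRF-binding CArG box, the cyclic AMP response element TGACGTCA or its half-site TGACG, the TATA box TATAAA, the EGR site GCGTGGGCG and the NR4A monomer site AAAGGTCA. A full response element contains a half-site on each strand.
Egr2, chr10:67537619-67537918, plus strand: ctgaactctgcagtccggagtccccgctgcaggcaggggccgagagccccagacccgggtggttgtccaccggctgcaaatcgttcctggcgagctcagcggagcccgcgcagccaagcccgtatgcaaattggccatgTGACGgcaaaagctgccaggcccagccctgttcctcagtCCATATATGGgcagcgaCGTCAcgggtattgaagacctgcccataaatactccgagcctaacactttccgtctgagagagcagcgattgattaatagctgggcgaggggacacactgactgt
Nr4a2, chr2:57123954-57124253, minus strand: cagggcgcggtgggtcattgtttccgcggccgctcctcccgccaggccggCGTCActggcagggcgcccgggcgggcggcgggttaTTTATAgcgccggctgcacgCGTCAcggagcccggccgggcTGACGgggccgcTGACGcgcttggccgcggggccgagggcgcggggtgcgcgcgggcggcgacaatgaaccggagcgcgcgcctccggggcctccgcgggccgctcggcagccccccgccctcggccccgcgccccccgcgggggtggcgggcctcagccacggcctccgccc
Nr4a1, chr15:101266596-101266895, plus strand: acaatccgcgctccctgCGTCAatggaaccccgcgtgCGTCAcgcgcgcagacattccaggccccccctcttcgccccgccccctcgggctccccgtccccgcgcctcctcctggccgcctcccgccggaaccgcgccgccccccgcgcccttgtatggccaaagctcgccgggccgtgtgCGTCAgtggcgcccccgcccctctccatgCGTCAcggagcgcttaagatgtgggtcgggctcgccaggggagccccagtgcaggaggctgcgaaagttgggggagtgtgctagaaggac
Nr4a3, chr4:48045055-48045354, plus strand: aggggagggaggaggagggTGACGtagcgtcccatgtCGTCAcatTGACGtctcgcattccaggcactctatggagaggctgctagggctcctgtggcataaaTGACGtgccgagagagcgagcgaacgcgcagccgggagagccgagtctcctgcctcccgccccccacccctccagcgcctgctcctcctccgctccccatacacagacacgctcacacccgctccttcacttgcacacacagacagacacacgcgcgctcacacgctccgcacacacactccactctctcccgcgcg
Nab1, chr1:52500399-52500698, minus strand: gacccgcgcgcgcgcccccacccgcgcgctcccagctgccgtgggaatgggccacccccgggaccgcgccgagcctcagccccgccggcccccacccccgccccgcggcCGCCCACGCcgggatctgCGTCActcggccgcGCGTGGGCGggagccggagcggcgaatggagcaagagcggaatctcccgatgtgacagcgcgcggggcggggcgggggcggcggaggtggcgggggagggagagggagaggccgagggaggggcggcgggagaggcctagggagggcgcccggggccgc

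The Egr2 window held 1 CArG box, beginning 72 bases upstream of the listed start, and 2 half-sites, beginning 111 and 55 bases upstream. Egr2 had 5 listed windows, 3 of which overlap around this start and hold the same matches, and this one was printed as the first of them. One of the other windows, chr10:67537316-67537615, held a different CArG box. The remaining Egr2 window, chr10:67535249-67535548, held no match to the motifs searched. A CArG box was present in 1.63% of 32851 promoter windows of the same length. Nr4a1, Nr4a2 and Nr4a3 each had 4 half-sites in their windows, a number reached by 0.231% of all windows, and 20.8% of all windows held at least 1. Nr4a2 alone among the printed windows had a TATA box match, beginning 164 bases upstream, against 13.6% of all windows with one. The Nab1 window held 2 EGR sites, beginning 141 and 109 bases upstream, where 0.612% of all windows held any. No match to the motifs searched was found in the Nab2 window. None of the windows taken for the 6 members held the full response element or the NR4A monomer site. A match is a description of the letters in the window and was not measured as a bound site.

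Values are MAS5 signals, the array software's linear intensity summary of a probe set. Chemosensory receptor genes, which T cells are not known to use, set a background floor of 118, and lower signals were raised to it before ratios were taken. Detected means brighter than the floor on either array, and a fold with 1 side under the floor is a lower bound, written "at least". The median signal of all 45037 probe sets was 87.6 on the triptolide array and 95.5 on the stimulated array. Among 11 T cell markers, all lay above the floor on both arrays, and their summed signal was 45463 with triptolide and 67845 without it. Of these, 2 read higher with triptolide and 9 lower, from 1.375-fold higher for Cd3e to 3.03-fold lower for Cd8a on their brightest probe sets. Myeloid markers, from cells that also express EGR and NR4A genes, had 5 of 8 members above the floor with triptolide (summed signal 7064) and 3 of 8 without it (5055), with Cd14, Itgam and Fcgr3 under the floor on both arrays. Most of each sum came from Ctss alone, which read 5971 with triptolide and 4321 without it. Of 7 B cell markers 6 were above the floor on each array (summed signal 7753 with triptolide and 7820.4 without it), with Pax5 under it on both. These near-equal sums hide markers that disagree, 2 having ratios above 0 and 4 below. Cd74 was 2.00-fold higher with triptolide, and H2-Ab1 was 2.97-fold lower. The part of these cells in the members' differences was not tested, and fewer cells of a type cannot be told apart from less RNA per cell.

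Across the family, 3 members had ratios above 0 and 5 below 0 on their brightest probe sets, where 60.2% of all detected genes were below 0. On those probe sets Egr2 and Nr4a2 were more than 2-fold higher with triptolide, and Egr1 was just under 2-fold higher. Egr3, Nr4a1, Nr4a3, Nab1 and Nab2 were lower by less than 2-fold, though the Nab1 probe sets disagree. For Egr3, Nr4a1, Nr4a3 and Nab2, between 30.8% and 37.4% of detected genes had a lower ratio still, which places them inside the bulk of all genes. All 8 genes were detected, 2 were at least 2-fold higher and 0 at least 2-fold lower, against a background of 5.6% (higher) and 12.4% (lower) of the 10886 detected genes. Among the 19 probe sets, 16 were detected, 5 of them at least 2-fold higher (5.69% of all detected probe sets) and 1 at least 2-fold lower (12.8%). Of the 5 higher probe sets 4 belong to Nr4a2 and share that gene, so they are not independent. The median log2 ratio of the 8 genes was -0.43, beside -0.16 for all detected genes. Probe sets of one gene gave a guide to technical scatter, over 3733 genes with at least 2 probe sets that cleared the floor on each array. The SD of a single probe set's log2 ratio within its gene was 0.49, taken from the differences between a gene's 2 brightest. A difference between 2 such ratios scatters more widely than that. The 2 brightest had the same sign in 72.0%.

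**Figure D1:**
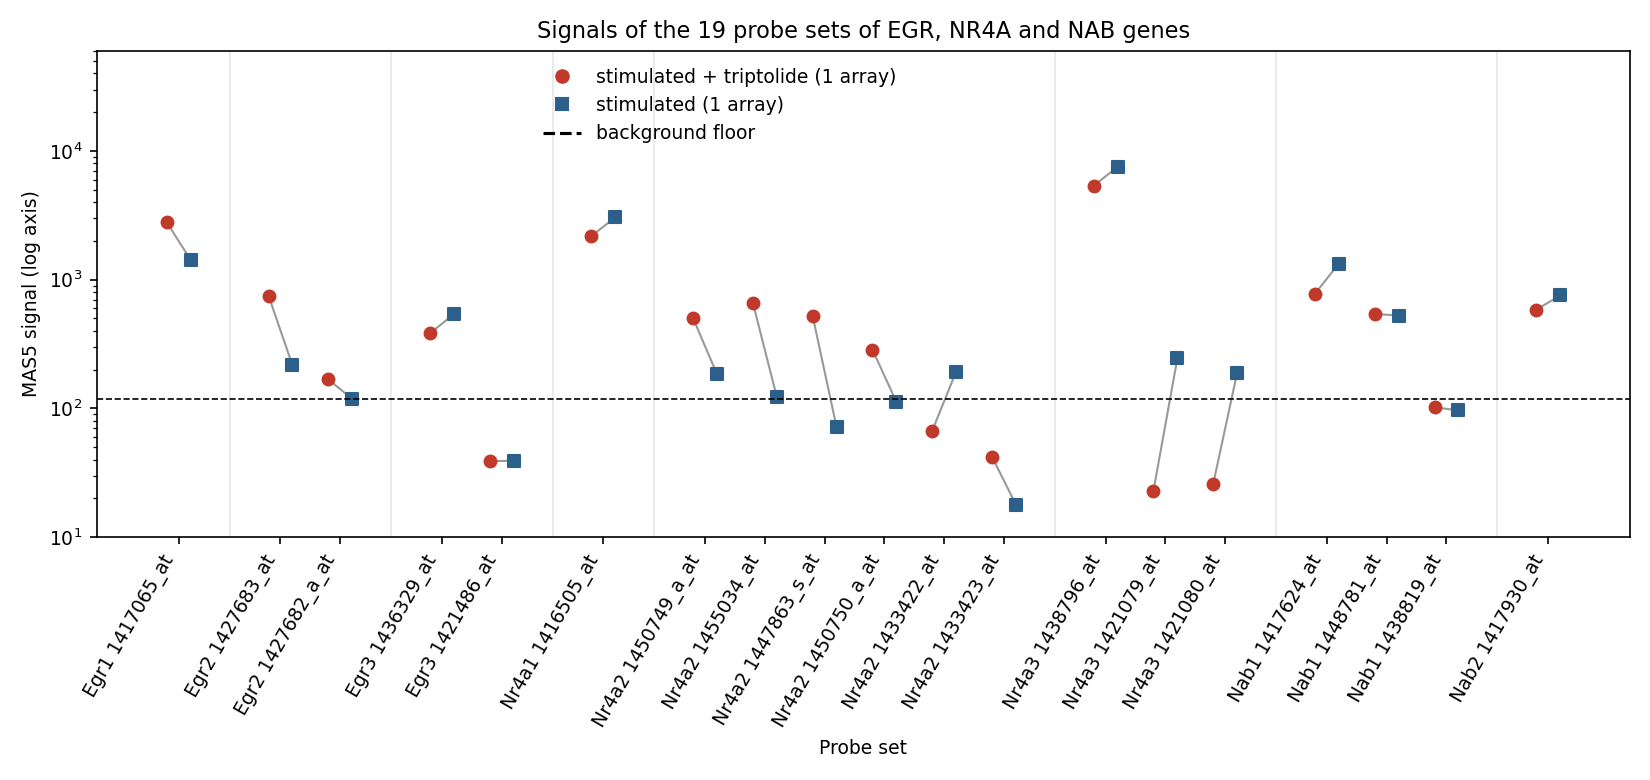
MAS5 signal (log axis) of each of the 19 probe sets, with the triptolide array as a red circle on the left, the stimulated array as a blue square on the right and the background floor of 118 as a dashed line. Lines falling to the right, as for Egr1, Egr2 and 4 detected Nr4a2 probe sets, mark a higher signal with triptolide; heights compare only within a probe set.

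Egr1, the founding member of the family and a direct ERK target, has a single probe set, with a signal of 2782 with triptolide and 1423 without it. Both values lay far above the floor, and the log2 ratio of 0.97 (1.95-fold higher) stopped just short of 2-fold. Ratios above that of Egr1 were found in 650 detected genes. When the arrays were centred on the median of all probe sets, its log2 ratio was 1.09 and passed 2-fold. Centred on housekeeping genes, it was 0.84 and stayed under 2-fold.

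Egr2, a factor tied to T cell anergy and to the control of effector programmes, had the highest ratio of the 8 genes. Its brightest probe set, 1427683_at, read 754 with triptolide and 217 without it. That is a 3.48-fold higher signal, a log2 ratio of 1.80, exceeded by 115 detected genes. The other probe set, 1427682_a_at, read 168 with triptolide and 118.6 without it, a value that barely cleared the floor. Both probe sets were higher with triptolide, with log2 ratios of 1.80 and 0.50, so the size of the difference depends on the probe set while the direction was shared.

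Egr3, which acts alongside EGR2 in T cells, went the other way on the probe set that detected it. Probe set 1436329_at read 383 with triptolide and 540.1 without it (log2 ratio -0.50). The second probe set, 1421486_at, read 39.0 with triptolide and 39.3 without it and was under the floor on both arrays. Egr3 therefore rests on 1 probe set, and its ratio is about as large as the scatter between probe sets of one gene.

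Nr4a1 encodes NUR77, widely used as a reporter of T cell receptor signal strength. Its single probe set read 2185 with triptolide and 3049 without it, a log2 ratio of -0.48. Among detected genes 31.8% had a lower ratio, which places Nr4a1 inside the bulk of all genes.

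Nr4a2, which encodes NURR1, had the most probe sets and the widest range among them. The brightest, 1450749_a_at, read 503 with triptolide and 185 without it (2.72-fold higher, log2 ratio 1.44), and 260 detected genes had a higher ratio. The probe set 1450750_a_at, annotated to the same transcript, read 287 with triptolide and 113 without it, at least 2.42-fold higher because the stimulated signal was under the floor. Both were higher with triptolide, and the second gives only a bound on the size.

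The next Nr4a2 probe sets gave larger ratios. Probe set 1455034_at read 663 with triptolide and 123 without it, 5.37-fold higher, the largest ratio among the members' probe sets. Probe set 1447863_s_at read 524 with triptolide and 71.6 without it, at least 4.42-fold higher. Thus 4 of the 5 detected Nr4a2 probe sets passed 2-fold upwards, and on the stimulated array all 4 lay near or under the floor.

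The last pair of Nr4a2 probe sets, both annotated to 1 cDNA clone, did not follow. Probe set 1433422_at read 67.2 with triptolide and 193 without it, at least 1.63-fold lower. Its partner 1433423_at read 42.1 with triptolide and 17.9 without it and was under the floor on both arrays. Which Nr4a2 transcript forms these probe sets detect was not tested.

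Nr4a3, which encodes NOR1, was bright on one probe set and dim on the others. Probe set 1438796_at read 5364 with triptolide and 7533 without it, a log2 ratio of -0.49. Probe set 1421079_at read 23.0 with triptolide and 246 without it, at least 2.07-fold lower, and 1421080_at read 26.1 with triptolide and 189.8 without it, at least 1.60-fold lower. All 3 probe sets were lower with triptolide, and the dim pair, made from 1 expressed sequence tag, was above the floor only on the stimulated array. The dim pair gives bounds only, so it sets no size for the Nr4a3 difference.

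**Figure D2:**
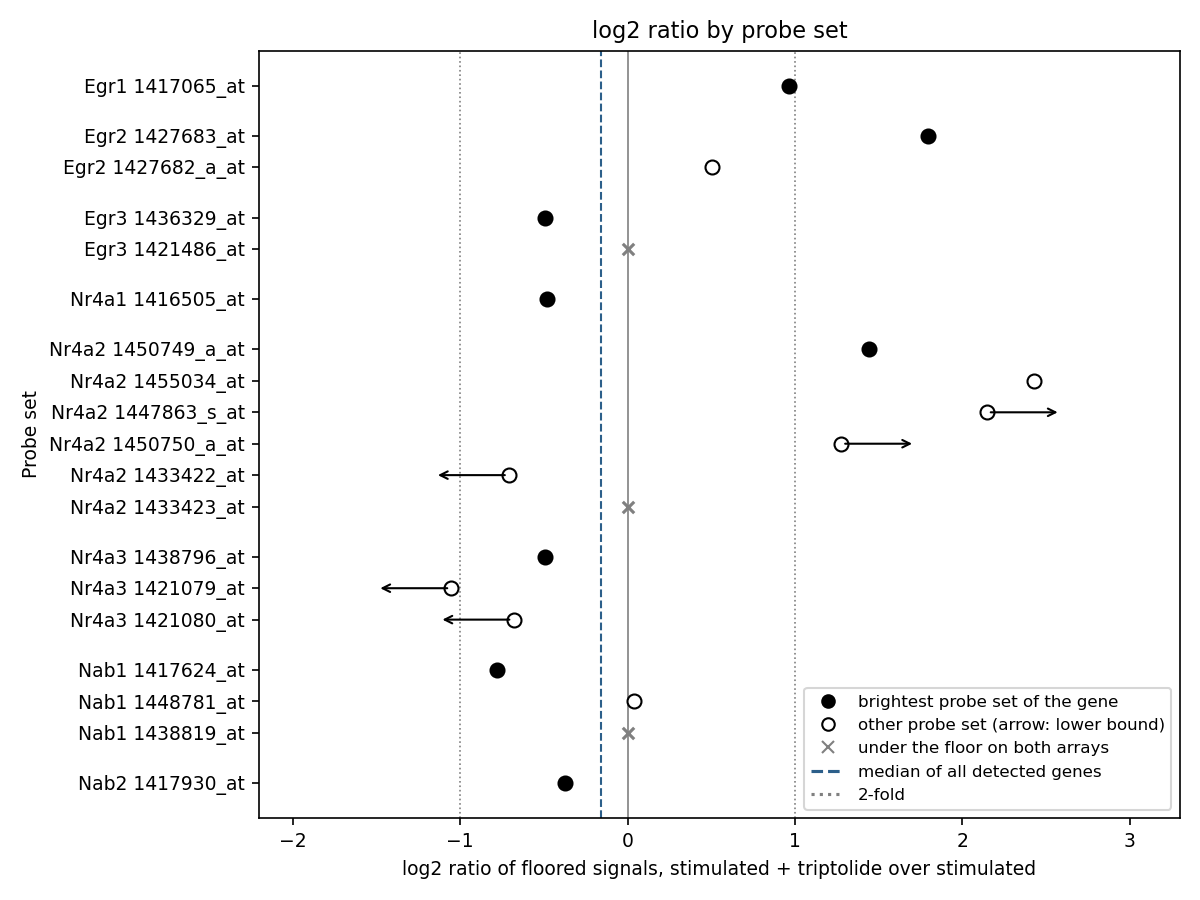
log2 ratio of floored signals, triptolide over stimulated, for each probe set, with filled points for a gene's brightest probe set, arrows for lower bounds, crosses for probe sets under the floor on both arrays, dotted lines at 2-fold and a dashed line at the median of all detected genes (-0.16). Nr4a2 spans from -0.71 to 2.43, while all 3 Nr4a3 probe sets lie below 0.

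Nab1, an EGR corepressor whose window above carries 2 EGR sites, was the lowest of the 8 genes on its brightest probe set. Probe set 1417624_at read 778 with triptolide and 1335 without it, a log2 ratio of -0.78 (1.72-fold lower). Probe set 1448781_at, annotated to the same RefSeq transcript, read 542 with triptolide and 527 without it, a log2 ratio of 0.04. The third, 1438819_at, read 102 with triptolide and 96.6 without it, under the floor on both arrays. The Nab1 probe sets thus disagree, and no direction is given for the gene.

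Nab2, the second corepressor and itself known as an EGR target, has a single probe set that read 584 with triptolide and 755 without it. Its log2 ratio of -0.37 was the smallest in size among the 8 genes. Neither corepressor gene reached 2-fold in either direction, while the EGR genes ranged from -0.50 to 1.80.

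**Figure D3:**
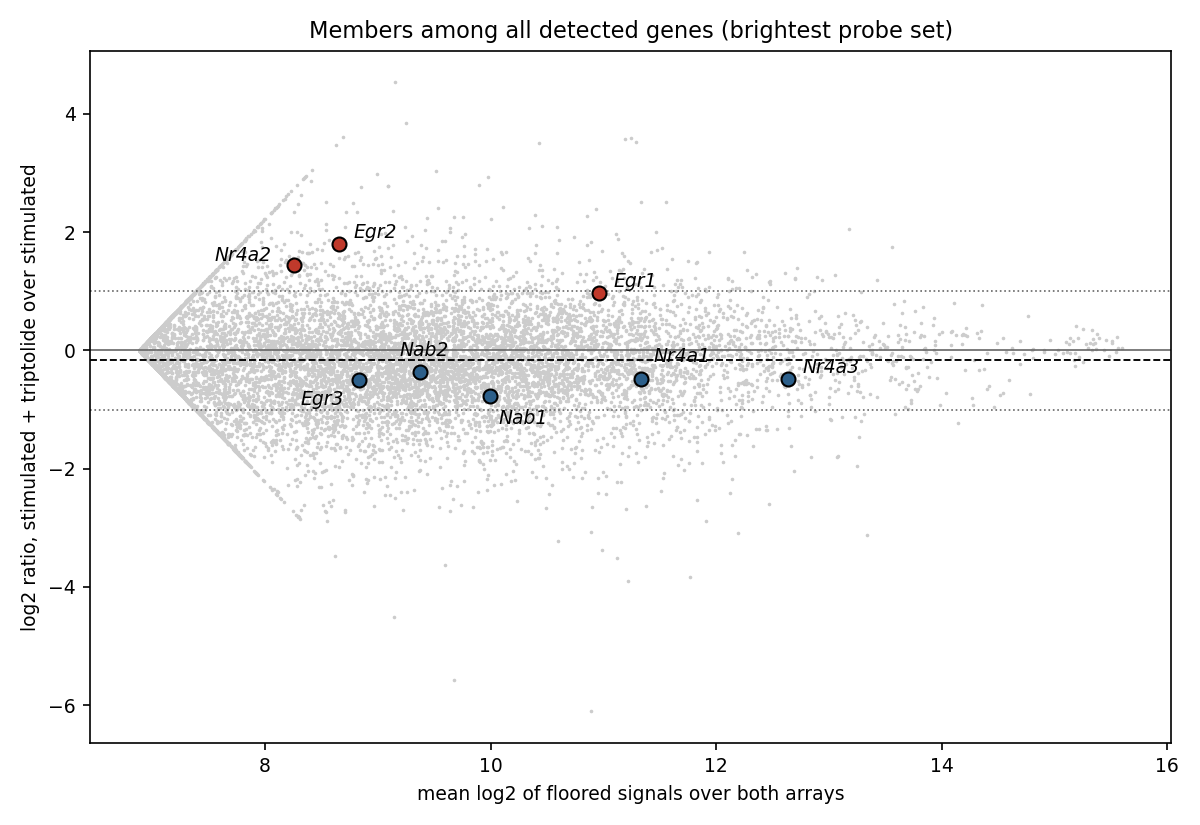
log2 ratio, triptolide over stimulated, against mean log2 of floored signals for all 10886 detected genes (grey), with the 8 members on their brightest probe sets, the 2-fold lines dotted and the median of all detected genes dashed. Egr2 and Nr4a2 lie above the upper 2-fold line, Egr1 just under it, and the other 5 members below 0 within 2-fold.

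The order of the ratios, highest first, was Egr2 (1.80), Nr4a2 (1.44), Egr1 (0.97), Nab2 (-0.37), Nr4a1 (-0.48), Nr4a3 (-0.49), Egr3 (-0.50) and Nab1 (-0.78). Neighbours in the top trio lie within 0.49 of each other, and so do all neighbours in the lower group of 5. That value is the SD of a single probe set's ratio within its gene, and a difference between 2 ratios scatters more widely. The gap between Egr1 and Nab2 is wider than that SD. These comparisons concern ratios, since levels of different probe sets cannot be set against each other.

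Genes whose brightest probe set read most like a member's on both arrays were found by distance over the 2 log2 signals, among genes above the floor on both. Nearest to Egr2 was Nufip2, with signals of 749 with triptolide and 220.3 without it, followed by 2810013P06Rik. Nearest to Nr4a2 were Rreb1, with 522 with triptolide and 181 without it, and Mylip, with 525 with triptolide and 182.5 without it. Nearest to Egr1 were H2ax (2828 with triptolide and 1478 without it) and Ei24. For the other members, Tgif2 and Dennd10 were nearest to Egr3, Tfg and Wipf1 to Nr4a1, Dnaja1 and Fxyd5 to Nr4a3, Gtf2h4 and Rest to Nab1, and Atp2b1 and Slc25a32 to Nab2. With 2 arrays such likeness is a match of 2 numbers and carries no more than that.

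Genes of the route that carries the receptor signal to Egr1 lay within 2-fold about as often as all genes. In the list of the ERK and SRF route, 12 genes had a named probe set and 11 were detected, of which 0 passed 2-fold upwards and 2 downwards (median log2 ratio -0.07). Thus 9 of 11 lay within 2-fold, where 82.0% of all detected genes did. Srf itself read 606 with triptolide and 635 without it. The RAS activator gene Rasgrp1, which couples diacylglycerol to ERK in T cells, was 2.40-fold lower, with 955 with triptolide and 2289.9 without it and all 4 detected probe sets lower. The brightest probe set of the kinase gene Braf was 2.09-fold lower, but its 8 detected probe sets ranged from -1.06 to 0.25. At the other end stood the RAS exchange factor gene Sos1 (log2 ratio 0.94) and the SRF partner gene Elk4 (0.42).

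In the list of the calcium, MEF2 and CREB route, which feeds the NR4A genes, 23 genes were detected, 0 at least 2-fold higher and 5 at least 2-fold lower, with a median of -0.25, beside 5.6% higher, 12.4% lower and a median of -0.16 over all detected genes. The lowest was Hdac7, a class IIa histone deacetylase that represses Nr4a1 through MEF2D in thymocytes, with 646 with triptolide and 2688 without it (4.16-fold lower). The calcium-dependent kinase gene Camk2g was 2.78-fold lower, with 208 with triptolide and 579.6 without it. The others at least 2-fold lower were the CREB coactivator gene Crtc3, the kinase gene Camk4 and the calcineurin subunit gene Ppp3cc, between 2.00- and 2.37-fold. Probe sets of Camk4 ran from -1.10 to 0.83. Creb1 and Hdac5 had the highest log2 ratios, 0.63 and 0.62.

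Genes linked to EGR2 and EGR3 in T cells were mostly lower, 14 of 18 detected genes having a ratio below 0 where 60.2% of all detected genes did. In that list 7 passed 2-fold downwards and 1 upwards (12.4% and 5.6% of all detected genes), and the median was -0.86 against -0.16 for all detected genes. Like the other lists, it was chosen with earlier results of these data known, so its share and median describe the chosen genes only. Id3, an inhibitor of E proteins, read 239 with triptolide and 1353 without it (5.66-fold lower). Dgka, a diacylglycerol kinase of anergic T cells, read 1084 with triptolide and 3485 without it (3.21-fold lower). The inhibitory receptor gene Lag3 and the costimulatory receptor gene Tnfrsf9 were 3.17- and 3.06-fold lower, and Ndrg1, Sema7a and the ubiquitin ligase gene Cblb between 2.12- and 2.23-fold lower.

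In that list 4 genes had a ratio above 0. The cell cycle inhibitor gene Cdkn1a, which is also a p53 target, read 4072 with triptolide and 838 without it (4.86-fold higher). Crtam, a receptor of activated T cells, had a log2 ratio of 0.96. The diacylglycerol kinase gene Dgkz had a ratio of -0.43, close to the bulk of all genes.

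Genes linked to NR4A receptors in T cells had 18 detected members, 0 at least 2-fold higher and 4 at least 2-fold lower, against shares of 5.6% and 12.4% over all detected genes. Their median was -0.41, beside -0.16 for all. The inhibitory receptor gene Ctla4 read 922 with triptolide and 13133 without it, 14.2-fold lower on its single probe set. Runx3, a factor of cytotoxic T cells, read 681 with triptolide and 3029 without it (4.45-fold lower). The homing receptor genes S1pr1 and Ccr7 were 3.28- and 2.35-fold lower. Foxp3, the regulatory T cell factor, read 190.3 with triptolide and 100.0 without it, at least 1.61-fold higher, and the inhibitory receptor gene Pdcd1 had a log2 ratio of 0.28. Tox, Tox2, Irf4 and Batf lay between -0.45 and 0.10 on their brightest probe sets. Other probe sets differed, the detected ones ranging from -1.72 to 0.10 for Irf4 and from -0.13 to 0.815 for Tox.

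Partners of NAB proteins in the NuRD chromatin complex were all detected, 14 of 14, with 1 at least 2-fold higher and 2 at least 2-fold lower, shares near the 5.6% and 12.4% of all detected genes, and a median of -0.31. Hdac1 stood at exactly 2.00-fold higher, with 7163 with triptolide and 3582 without it. Chd4, the helicase that binds NAB2, had a log2 ratio of 0.52. Mta3 and Mbd3 were 3.18- and 2.26-fold lower, though the 3 detected Mta3 probe sets ranged from -1.67 to -0.23. Relatives and dimer partners of the members, 7 of them detected, held 1 gene at least 2-fold lower and 0 higher (12.4% and 5.6% of all detected genes). Sp1, a zinc finger factor that shares GC-rich sites with EGR proteins, read 1161 with triptolide and 2936 without it (2.53-fold lower). Rora was the next lowest at -0.61, and the highest were Esrra (0.04) and Rxrb (-0.13), which encodes a retinoid X receptor that can pair with Nr4a1 and Nr4a2 products.

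Other immediate early genes went both ways, as the members did. Of 30 detected genes 4 passed 2-fold upwards and 7 downwards (5.6% and 12.4% of all detected genes), with a median of 0.03 beside -0.16. Dusp6, an ERK phosphatase, read 514 with triptolide and 137 without it (3.75-fold higher), and Klf4 read 389.9 with triptolide and 82.6 without it (at least 3.29-fold higher). The cytokine gene Tnf and the AP-1 gene Fosl1 made up the rest of the higher set, at 2.86-fold and at least 2.10-fold. Ier3 was 5.82-fold lower, with 498 with triptolide and 2901 without it, and Klf2, a quiescence factor, read 794 with triptolide and 3175 without it. Klf6, Dusp5, Junb, Spry1 and Myc were between 2.16- and 2.86-fold lower, though the 5 detected Klf6 probe sets ranged from -1.55 to 0.34. Fos, the gene most often read out beside Egr1, had a log2 ratio of 0.46.

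**Figure D4:**
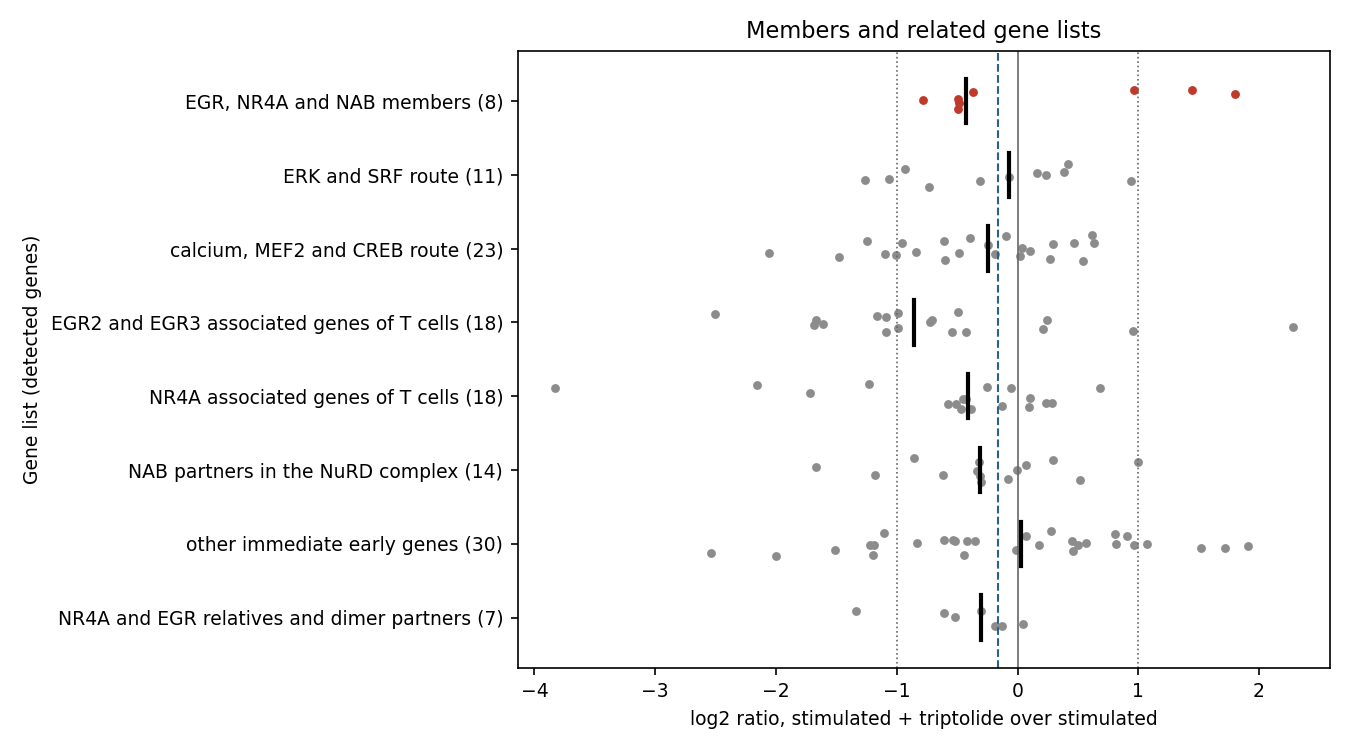
log2 ratio, triptolide over stimulated, of each detected gene on its brightest probe set (points) with the median of each list (black bar), for the 8 members (red) and 7 related lists, with the number of detected genes in brackets, dotted lines at 2-fold and a dashed line at the median of all detected genes. The EGR2 and EGR3 associated list has the lowest median (-0.86), and the members and other immediate early genes both spread to either side of 0.

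The direction of each member was recomputed under 11 other settings of scaling, floor and choice of probe set. Egr1 and Egr2 were above 0 in all 11, and Egr3, Nr4a1, Nr4a3 and Nab2 below 0 in all 11. Nr4a2 was above 0 in 10, and read -0.71 when a gene was represented by its highest signal on the stimulated array, since that choice selects 1433422_at. Nab1 was below 0 in 10, and was 0.0 as the median over its probe sets. That 0.0 is the floored ratio of 1438819_at, which was under the floor on both arrays, and the median over the detected Nab1 probe sets was -0.37. Egr1 ranged from 0.84 to 1.15. It passed 2-fold in 3 of the 4 scalings (median centring, equal trimmed means and quantile normalization). The remaining scaling, centring on housekeeping genes, gave its lowest value, 0.84.

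**Figure D5:**
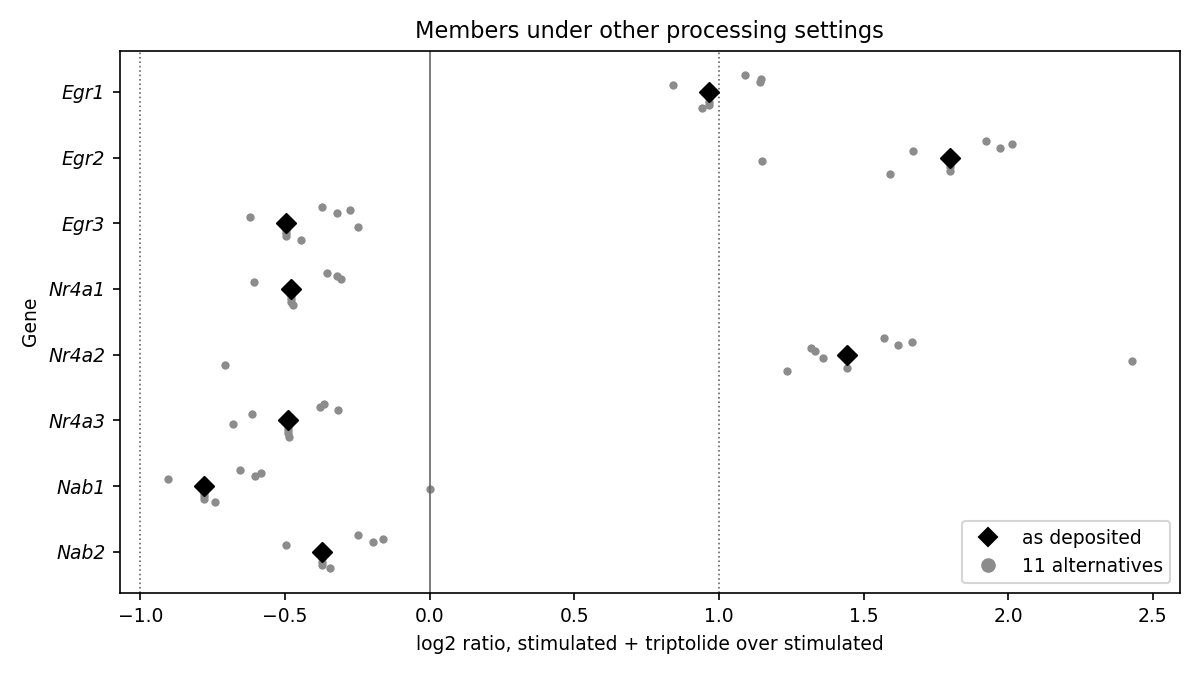
log2 ratio, triptolide over stimulated, of each member as deposited (black diamond) and under 11 alternative settings (grey points), with dotted lines at 2-fold. Nr4a2 has 1 setting at -0.71 and the others above 1, and Nab1 has 1 setting at 0.0.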

How the data were processed

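Total RNA of primary mouse T cells was measured on 2 arrays, grouped by the source names in the labels. The authors deposited 1 linear signal intensity per probe set and array, summarised by the MAS5 algorithm per the submitters' processing notes; version, scaling settings and detection calls were not used here. After 2% trimming, both arrays had a mean of 2000.0 over the 100 probe sets at the head of the table, and of 340 (triptolide) and 383 (stimulated) over all 45037, so scaling appears to rest on those 100.

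Of the probe sets, 34945 had 1 gene symbol, 932 several and 9160 none, and 34741 matched the RefSeq table of GRCm38.p6 by gene number. Each gene was taken from the probe set that was brightest by mean log2 signal. The floor was the higher of both arrays' 95th percentiles over 87 chemosensory receptor probe sets (118 with triptolide, 107 without it). Ratios are log2 of triptolide over stimulated signals after flooring, and a gene was called at 2-fold. The number of arrays limits the precision, and no test was possible. Named are the members, the 2 highest and 2 lowest detected genes of each list and the 2 nearest genes of each member; other genes in the text were chosen after their values were seen. Members and lists were chosen with earlier results of these data known. Calculations used Python 3.11.15 with pandas 2.3.3 and were tested on simulated data. Alternatives covered scaling, floor, pseudocount, probe set choice and fold.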

Additional observations from a re-analysis of the deposited data

How the results depend on the processing

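Counts of member genes at least 2-fold higher were 2 as deposited and 2 or 3 under the alternatives, with the exception of 1 when genes were represented by their highest signal on the stimulated array, a choice that favours probe sets lower with triptolide and turned Nr4a2 to -0.71. No member was at least 2-fold lower under any setting, while a 1.5-fold rule called 1 gene lower (Nab1). Taking a gene's median ratio across its probe sets gave 1.15 for Egr2 and 0.0 for Nab1, the latter set by a probe set under the floor on both arrays. Leaving out probe sets with _s_at, _x_at or _a_at endings gave 2.43 for Nr4a2, which then rests on 1455034_at. Among all detected genes, 610 higher and 1346 lower became 1451 and 2923 at 1.5-fold; without a floor 1041 were higher, and after quantile normalization 884 were lower. Lower genes made up 68.8% of the calls as deposited, 58% after median centring, 53.9% with equal trimmed means, 50.8% after quantile normalization and 77.6% when centred on 16 detected housekeeping genes. The median of all detected genes was -0.16 as deposited and 0.0045 after quantile normalization, where the members' median was -0.22. Signals near the floor limit Nr4a2, Egr2 and the dim Nr4a3 probe sets. No paired analysis was possible because each condition has 1 array.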
